A study of Mus musculus with 2 samples.

Results

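Choroid plexus epithelium genes were examined on 1-colour Agilent expression arrays of mouse brain RNA. The 10 genes were Ttr, Folr1, Kl, Enpp2, Aqp1, Clic6, Otx2, Sostdc1, Rarres2 and F5, out of 37061 gene names on the array. They had 17 of the 56603 probes, and every probe whose array gene name was one of the 10 was taken. They are known markers but were selected on the log2 signal differences between these same 2 arrays, which were already in view, so their counts describe these arrays and carry no independent support. The question was whether Ttr moved apart from the other 9.

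The study is about GPHR loss in brain and had 2 samples, both from C57BL/6J mice at postnatal day 10. One had the genotype GPHR F/F and was the littermate control, and the other was GPHR F/F;Nes, so both carried the F/F alleles and only the second carried Nes; they are called the control and the Nes array from here on. The labels do not spell out what Nes stands for, which exons the alleles concern, the sex of the mice or whether RNA of several animals was pooled. GPHR is the Golgi pH regulator, an anion channel of the Golgi membrane encoded in the mouse by Gpr89. Each genotype had 1 array, so differences could not be checked against replicates and none was tested.

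The choroid plexus is a sheet of epithelium folded into the brain ventricles that secretes cerebrospinal fluid. Its cells move sodium, chloride, bicarbonate and water, import folate, and secrete carrier proteins. Transthyretin, the product of Ttr, carries thyroxine and, bound to retinol-binding protein, retinol. It is among the most abundant messages of this epithelium, and OTX2 is the transcription factor that specifies and maintains it.

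Signals are given first as the scanner software's processed signal in intensity units, which is not scaled between arrays. Differences subtract the control from the Nes array in log2 units, each array having been set to its own 75th percentile, which was 259.5 units in the control and 173.4 units on the Nes array. This scaling adds 0.58 to every unscaled log2 difference. Errors after ± come from the scanner software, which gives an error that is technical and does not cover variation among mice. Measured probes are those flagged well above background by the software on each of the 2 arrays.

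Over all 23948 measured genes differences had a median of 0.07 and an SD of 0.57, with 1901 genes higher and 328 lower by 2-fold or more. The higher genes thus made up 85.3% of the 2-fold genes, against 57.1% with arrays centred on their medians, 68.6% after quantile normalization, 72.5% after loess correction, 17.9% without scaling and 1.25% after scaling to spike-in RNAs. These 5 settings moved the median of all genes by -0.28, -0.11, -0.07, -0.58 and -1.03. Gpr89 was lower by -0.53 ± 0.22, from 43.3 units to 20.04 units, although a probe outside the deleted part would check nothing. Xist was well above background on the Nes array only (at least 55.8-fold) and the Y-linked gene Ddx3y in the control alone (at least 10.9-fold), so sex and genotype cannot be told apart. All 7 genes checked as brain markers (Snap25, Syt1, Tubb3, Rbfox3, Gfap, Slc1a3 and Mbp) were measured on both arrays, with a median difference of -0.14. They did not move together: Snap25, Syt1, Tubb3 and Rbfox3 were at -0.14, -0.15, -0.28 and -0.88. Gfap, Slc1a3 and Mbp were at 0.82, 0.48 and 0.05.

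Ttr had by far the largest difference of the 10 genes. Its measured probe, probe 2 in the plots, read 26.2 ± 2.98 units in the control and 715.7 ± 71.6 units on the Nes array, a 27.3-fold higher processed signal before scaling. After scaling the difference was 5.35 ± 0.22, or 40.9-fold, which ranked first of the 23948 measured genes. The spot's brightness before background subtraction was 48.6 units in the control and 717.7 units on the Nes array, over local backgrounds of 18 and 17 units. The probe thus stood much closer to its surroundings in the control than on the Nes array.

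Ttr probe 1, whose target lies 4093 bp from that of probe 2 on the same strand, went the same way. It read 1.38 ± 1.38 units in the control, not well above background, and 29.1 ± 3.12 units on the Nes array, where it was well above background. Set against 6.28 units, the dimmest signal that was well above background in the control, it was at least 6.94-fold higher. Both probes are designed to the same transcript and hybridised the same 2 RNA samples, so they check the probe and not the animals. Neither spot was flagged as an outlier, and no member probe was saturated.

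**Figure D1:**
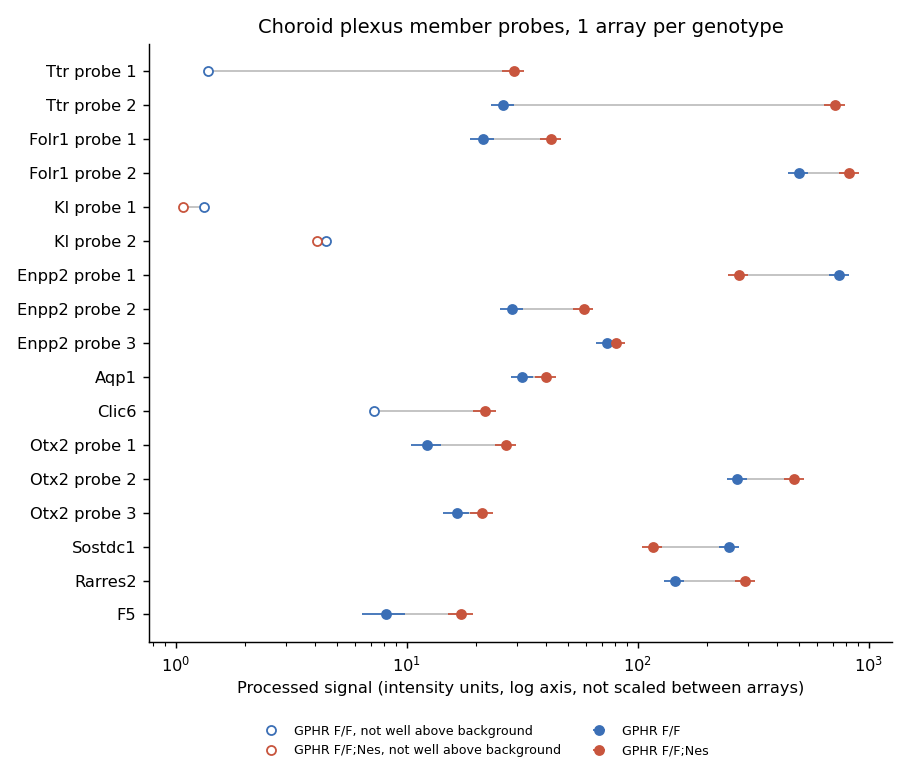
Processed signal (intensity units, log axis, not scaled between arrays) of all 17 member probes on the GPHR F/F array (blue) and the GPHR F/F;Nes array (red), with the scanner software's error as bars and open circles for spots not well above background, which have no bars. Ttr probe 2 went from 26.2 to 715.7 units, whereas 2 other measured probes, Enpp2 probe 1 and the Sostdc1 probe, were lower in GPHR F/F;Nes.

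The other 9 members did not follow Ttr in size. Of them, 7 were measured on both arrays, Clic6 on the Nes array only and Kl on neither. The 7 had differences from -0.52 to 1.66, with a median of 1.36 (2.57-fold higher) and an SD of 0.78 among them. Ttr lay 3.99 log2 units above that median, a gap of 15.9-fold, and 3.69 above the highest of them, F5. Because both arrays are scaled alike for all genes, this gap was the same without scaling, where Ttr differed by 4.77 and the others by a median of 0.78.

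Counted by gene, 5 of the 8 measured members were at least 2-fold higher (Ttr, F5, Rarres2, Folr1 and Otx2), against 7.94% of all measured genes, and none was 2-fold lower, against 1.37% of genes. Counted by probe, 8 of the 13 measured member probes were at least 2-fold higher, against 7.11% of all measured probes, and none was 2-fold lower, against 1.45%. Before scaling, 11 of the 13 were higher and 2 lower, with 5 higher and 2 lower by 2-fold or more. These shares belong to genes picked with this comparison in view, so nothing is read from them. In bulk RNA, more cells of a type and more RNA per cell cannot be told apart.

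**Figure D2:**
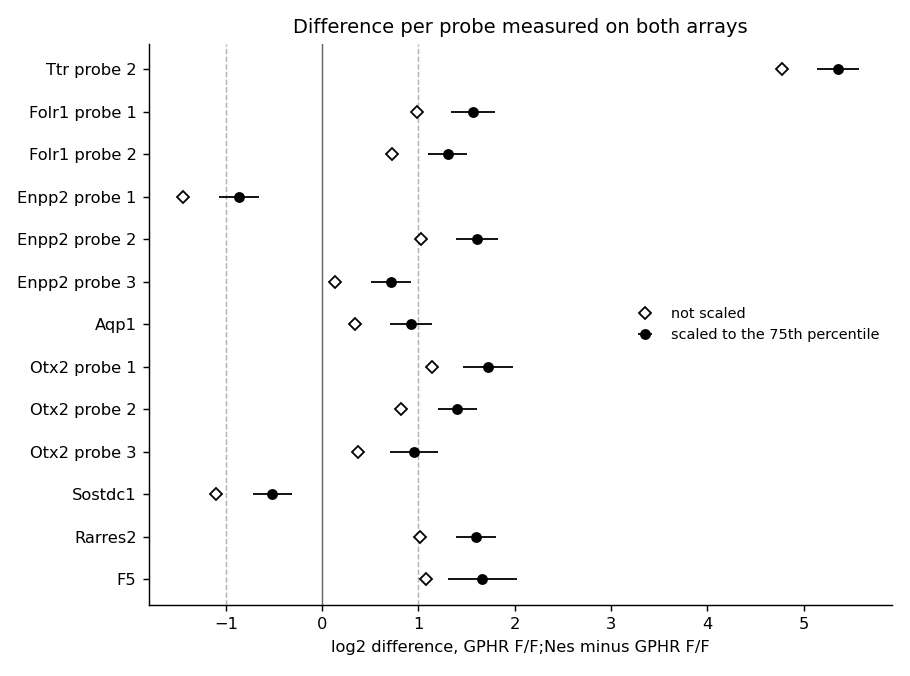
Log2 difference (the Nes array minus the control) of the 13 member probes measured on both arrays, scaled to each array's 75th percentile (filled circles, bars give the scanner software's error) and without scaling (open diamonds), with dashed lines at 2-fold. The Ttr probe lies at 5.35, and the other 12 lie between -0.87 and 1.72.

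Otx2, the transcription factor of choroid plexus identity, had 3 probes on the minus strand of chromosome 14 (mm9), all higher on the Nes array. Probe 1 (chr14:49281026-49281085) read 12.2 units in the control and 27.01 units on the Nes array, a difference of 1.72 ± 0.26. Probe 2 (chr14:49277855-49277914) read 270.3 and 477.7 units, a difference of 1.40 ± 0.20. Probe 3 (chr14:49284952-49285011) read 16.5 and 21.3 units, a difference of 0.95 ± 0.25. The 3 thus shared a direction, and the gap between probes 1 and 3 was 0.77 ± 0.36. Their mean was 1.36 ± 0.14.

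Otx2 probe 3 is shown by its first 30 bases because its 60 bases match exactly within 1 of the 4 Otx2 promoter windows that RefSeq gives on GRCm38.p6 (chr14:48665060-48665359, minus strand), at bases 24 to 83. That window also holds the core letters of the OTX2 motif, TAATCC, on the opposite strand as GGATTA, at bases 40 to 45 and so inside the probe.
Otx2 probe 3: gggacgtgtgcccctcggattatctcgtta
TAATCC or its reverse complement was searched on both strands of 300-base windows, 250 bases before to 50 after each start. It was found in 1 of the 7 windows of the 4 members that could be matched by symbol (F5, Kl, Aqp1 and Otx2), against 7.06% of all 32851 windows. The match is a description of these letters only.

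Folr1, the folate receptor that loads folate into the cerebrospinal fluid, was higher by both of its probes, on the minus strand of chromosome 7 (mm9). Probe 1 (chr7:109016972-109017031) read 21.4 units in the control and 42.2 units on the Nes array, a difference of 1.56 ± 0.23. Probe 2 (chr7:109006846-109006905) read 499.3 and 823.6 units, a difference of 1.30 ± 0.20. The gap of 0.26 ± 0.31 between them was within the scanner error, although their targets lie 10126 bp apart. The gene stood at 1.43 ± 0.15, 2.70-fold higher.

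Enpp2, which encodes the secreted enzyme autotaxin and is also expressed in oligodendrocytes and vessels, was the member whose probes disagreed. The first 30 bases of its 3 probes (60 bases each) are shown in order of their probe number, because the direction of this gene depends on which is read. Probe 1 lies at chr15:54670921-54670980, probe 2 at chr15:54700197-54700256 and probe 3 at chr15:54666799-54666858, all on the minus strand of mm9.
Enpp2 probe 1: agctattcggaaattctgaccctcaagaca
Enpp2 probe 2: tctttatagacagtagaagttaaaggcaga
Enpp2 probe 3: gcaagtggtctctgcttctgctaccgcctt
Probe 1, designed to the RefSeq mRNA, read 747.2 units in the control and 274.1 units on the Nes array, a difference of -0.87 ± 0.20. Probe 2, designed to a cDNA clone, read 28.7 and 58.5 units, a difference of 1.61 ± 0.22. Probe 3, also designed to a cDNA clone, read 73.5 and 80.5 units, a difference of 0.71 ± 0.21. Probes 1 and 2, whose targets lie 29276 bp apart, thus differed by 2.48 ± 0.30, far beyond the scanner error. The mean over the 3 was 0.49 with an SD of 1.25 between probes, so Enpp2 has no single direction on these arrays. It was -0.87 by its brightest probe and 1.16 by the mean of the other 2.

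Rarres2, which encodes the chemoattractant chemerin, and F5, coagulation factor V, had 1 probe each and were both higher on the Nes array. The Rarres2 probe (its match spans chr6:48519775-48519969 of mm9, minus strand) read 144.7 units in the control and 292.2 units on the Nes array, a difference of 1.60 ± 0.20 (3.02-fold). The F5 probe (chr1:166149553-166149612 of mm9, plus strand) read 8.14 ± 1.73 and 17.2 ± 2.14 units, a difference of 1.66 ± 0.36. F5 was close to background in the control, whereas Rarres2 was well clear of it on both arrays. With normexp correction and quantile normalization F5 stood at 0.17 and Rarres2 at 1.24.

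Aqp1, the water channel of the epithelium's ventricular surface, differed by less. Its probe (chr6:55298480-55298539 of mm9, plus strand) read 31.7 ± 3.44 units in the control and 40.3 ± 4.17 units on the Nes array, a difference of 0.93 ± 0.22 after scaling and 0.34 before it. After scaling to spike-in RNAs it was -0.11, the 1 setting of 12 in which it lay below 0.

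Sostdc1, a secreted antagonist of BMP and WNT signalling, was lower. Its single probe (chr12:37044787-37044846 of mm9, plus strand) read 249.4 ± 25.0 units in the control and 116.3 ± 11.7 units on the Nes array, 2.14-fold lower before scaling. After scaling the difference was -0.52 ± 0.20, 1.43-fold lower and short of the 2-fold line. It was below 0 in all 13 alternative settings that gave it a value.

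Clic6, a chloride intracellular channel gene, and Kl, which encodes klotho, were at the edge of detection. The Clic6 probe (chr16:92541363-92541422 of mm9, plus strand) read 7.21 units in the control, not well above background, and 21.9 units on the Nes array, so it was at least 4.54-fold higher. The 2 Kl probes read 1.32 and 4.48 units in the control and 1.08 and 4.09 units on the Nes array, none well above background. A defining marker of the epithelium was therefore not detected on either array, and another only on the Nes array.

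Members of like signal level differed from each other. When all measured genes were divided into 20 bins of mean signal, Ttr, Folr1 and Sostdc1 fell in the same bin, with a median difference of -0.01. Within that bin Ttr was at 5.35, Folr1 at 1.43 and Sostdc1 at -0.52. Their mean signal includes these differences, and in the control alone the 3 read 26.2, 103.3 and 249.4 units. The bin of F5, among the dimmest, had a median of 0.45, so F5 lay 1.21 above the genes of its level, and Otx2 lay 1.16 above those of its own.

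**Figure D3:**
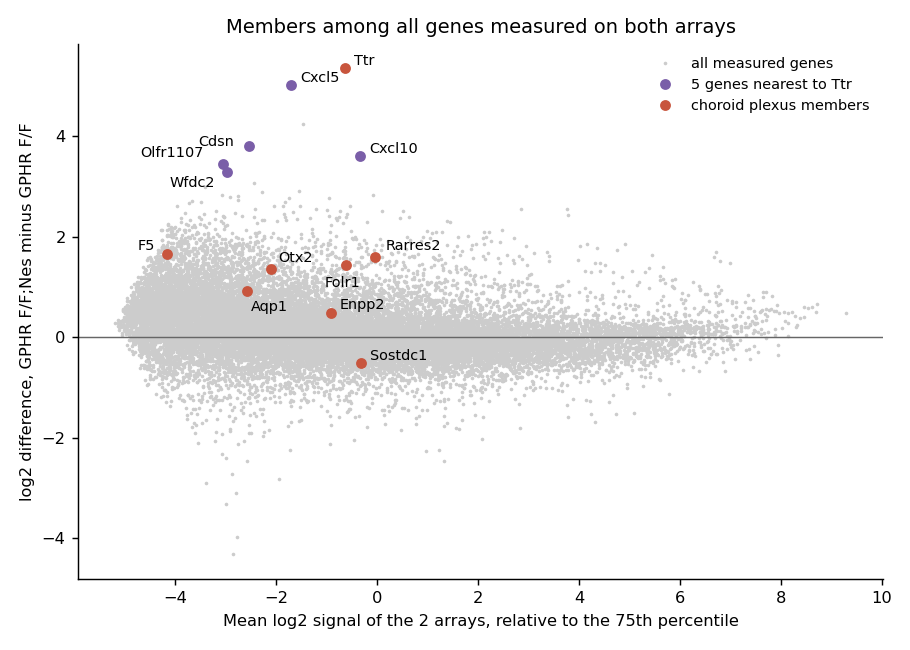
Log2 difference (the Nes array minus the control) against mean log2 signal relative to the 75th percentile, for 23948 genes measured on both arrays (grey), the 8 measured members (red) and the 5 genes with a symbol nearest to Ttr in difference (purple). Ttr (5.35) and Cxcl5 (5.01) lie apart from the other members, which range from -0.52 to 1.66.

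The genes whose difference lay nearest to that of Ttr were not choroid plexus members. By absolute distance in log2 units over these 2 arrays, the nearest gene with a symbol was Cxcl5, a neutrophil chemokine, at 5.01 ± 0.26 (distance 0.34). It was followed by Cdsn, a cell adhesion protein of the skin (3.81), the interferon-induced chemokine Cxcl10 (3.60), the olfactory receptor gene Olfr1107 (3.44) and Wfdc2, a secreted protein of epithelia (3.29). Cxcl5 read 13.97 units in the control and 301.6 units on the Nes array. All 5 rested on 1 probe each, and 463 genes lay above F5, the highest of the other members.

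Further choroid plexus genes were read from 3 lists of known function, drawn up with earlier results of these arrays known. Of their 82 genes, 71 were measured, of which 20 were higher and 1 was lower by 2-fold or more, beside 7.94% and 1.37% of all genes. The 20 became 11 with arrays centred on their medians, 9 after normexp correction, 3 without scaling and 2 after scaling to spike-in RNAs. Over all 23948 measured genes the 1901 at least 2-fold higher became 1077, 326, 553 and 139 in these settings. Changed counts of every list below stand beside this fall across all genes. The median of the 71 choroid plexus genes was 0.53, with 53 above 0 and 18 below, and the highest lay 2.58 below Ttr. That highest gene was Igf2.

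Ion and solute transport genes had a median of 0.25 over 28 measured genes. Of these, 4 were 2-fold higher and none 2-fold lower, against 7.94% and 1.37% of all genes. The 4 were Steap1 (1.49 ± 0.21), the endocytic receptor Lrp2, also called megalin (1.36 ± 0.12), the potassium channel Kcnj13 (1.34 ± 0.25) and the sulfate transporter Slc13a4 (1.18 ± 0.27). The potassium channel subunit Kcne2 read 9.35 and 8.37 units (0.42 ± 0.37), and the sodium pump subunit Atp1b1, which neurons share, stood at -0.72 ± 0.20. The list's median was -0.03 with arrays centred on their medians, -0.34 without scaling and -0.79 after scaling to spike-in RNAs, with 0 genes 2-fold higher in the latter 2. Slc4a5 was not well above background on either array, and Car12 was so in the control alone (at least 1.44-fold).

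Secreted and signalling genes had a median of 0.77 over 27 measured genes, with 9 at least 2-fold higher (7.94% of all genes were) and 1 lower. Without scaling the median was 0.18 with 3 genes 2-fold higher, and after scaling to spike-in RNAs -0.27 with 2. The growth factor Igf2, which meninges express too, was at 2.78 (SD between its probes 0.65), Ecrg4, a secreted hormone-like precursor, at 2.15 ± 0.20 and the collagen chain gene Col8a2 at 1.78 ± 0.21. The serotonin receptor Htr2c, which neurons also express, was at -1.70 ± 0.20, from 1219 to 251.0 units. Of 3 further genes seen on 1 array, Cox8b (at least 2.80-fold) and Wfikkn2 (at least 1.84-fold) were higher on the Nes array, and Tmem72, seen in the control, has no direction after scaling. Genes that handle the cargo of transthyretin, picked after their values were seen, went both ways. Rbp4, the retinol-binding protein, was at -0.95 ± 0.21, its receptor Stra6 at 0.77 ± 0.20, and the thyroid hormone transporter Slco1c1 at -0.31 ± 0.14.

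Genes of epithelial identity and junctions had a median of 0.75 over 16 measured genes, with 7 at least 2-fold higher (7.94% of all genes were) and none lower. The 7 became 2 with arrays centred on their medians, 2 after normexp correction, and 0 both without scaling and with spike-in scaling. All genes 2-fold higher went from 1901 to 1077, 326, 553 and 139 in these settings. The keratins Krt8 (1.46 ± 0.34) and Krt18 (1.26 ± 0.26) and the roof plate factors Lmx1a (1.43 ± 0.21) and Msx1 (1.19 ± 0.20) had the largest differences of the 16. Krt8 read only 7.97 units in the control. Of the 16, 3 lay below 0: Ocln (-0.61 ± 0.31), Cldn1 (-0.13 ± 0.21) and Lmx1b (-0.11 ± 0.16). The junction gene Tjp1 was at 0.19 ± 0.14, and Otx1, Cldn3, Cdh1 and Epcam were not well above background on either array. The claudin Cldn2, a defining junction protein of this epithelium, was well above background on the Nes array only, by 1 of its 2 probes and at least 1.55-fold. After scaling to spike-in RNAs the median of this list was -0.28, and in every other setting run it was above 0.

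Markers of neighbouring tissues were read beside these genes. Of 18 measured meninges genes 10 were higher and none lower by 2-fold or more, against 7.94% and 1.37% of all genes. Of the 18, 4 lay below 0, and the median was 1.31. The largest differences were those of Slc6a13 (2.84 ± 0.28), Col3a1 (2.62 ± 0.21), Col1a2 (2.61 ± 0.21) and Foxc1 (2.07 ± 0.22), and of genes seen on the Nes array only, Aldh1a2 was at least 10.4-fold and Foxd1 at least 2.56-fold higher. The 10 became 6 without scaling, 4 after scaling to spike-in RNAs and 3 after normexp correction, while all genes 2-fold higher went from 1901 to 553, 139 and 326. Before scaling, the processed signals of the 18 summed to 13837 units in the control and to 9097 units on the Nes array. After scaling, as multiples of each array's scaling percentile, the sums were 53.3 and 52.5 and thus nearly level. Nnat (-0.32), which neurons share, dominated these sums. Of 10 border macrophage genes 4 were measured, while Mrc1, Lyve1, Cd163 and Clec10a were not well above background on either array. Of the 4, 3 were 2-fold higher (F13a1 1.80 ± 0.26, Ms4a7 1.18 ± 0.24 and Stab1 1.03 ± 0.28), against 7.94% of all genes. The 3 became 1 with arrays centred on their medians, without scaling, after quantile normalization or after loess correction, and 0 after normexp correction or scaling to spike-in RNAs. All genes 2-fold higher went from 1901 to 1077, 553, 1234, 1331, 326 and 139 in these settings. Pf4 was at 0.48 ± 0.30. Before scaling, the signals of the 4 summed to 55.0 units in the control and to 84.6 units on the Nes array. After scaling the sums were 0.21 and 0.49. The part of these tissues in the members' differences was not tested.

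Ependyma and endothelium differed by less. Of 19 measured genes of ependyma, the ciliated lining of the ventricles, 2 were 2-fold higher, against 7.94% of all genes. They were Pltp (2.22-fold) and Dynlrb2 (2.15-fold), ahead of Ccdc153 (0.88 ± 0.21) and Cfap52 (0.87 ± 0.21). Of the 19, 3 lay below 0: Dnah5 (-0.66 ± 0.21), Tmem212 (-0.45 ± 0.25) and Hydin (-0.14 ± 0.22). The list's median was 0.51. That median was -0.07 without scaling and -0.52 after scaling to spike-in RNAs, with 0 genes 2-fold higher in both. Of 9 measured endothelial genes 3 were 2-fold higher (Flt1 1.35 ± 0.21, Kdr 1.23 ± 0.20 and Ly6c1 1.20 ± 0.38), against 7.94% of all genes. The median of the 9 was 0.16, and Pecam1 was at -0.07 ± 0.23. The endothelial median was below 0 in 4 of 13 alternative settings. The 3 became 1 with arrays centred on their medians and 0 without scaling, while all genes 2-fold higher went from 1901 to 1077 and 553. Of the 9, 4 lay below 0, with Egfl7 at -0.77 ± 0.20, from 1868 to 733.8 units. Esam and Emcn were well above background in the control only (at least 1.27-fold and 1.04-fold higher there). Ly6c1 read 6.72 units in the control, close to the dimmest signal well above background there, 6.28 units. Before scaling, the summed signal of the ependyma genes was 2173 units in the control and 2314 units on the Nes array. That of the endothelial genes was 4151 and 2943 units. After scaling, as multiples of each array's scaling percentile, the sums were 8.37 and 13.3 for ependyma. For endothelium they were 16.0 and 17.0, so with this scaling the endothelial sum was no longer lower on the Nes array.

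Liver and pigment epithelium also make transthyretin. Of 16 liver genes only 6 were measured, and none was 2-fold either way, beside 7.94% of all genes higher and 1.37% lower. Their median was 0.20, and the largest differences were those of Serpina1e (-0.59 ± 0.26), Mup3 (0.54 ± 0.23), Apoc3 (0.53 ± 0.21) and Serpina1c (0.37 ± 0.40). Another 5 were well above background on the Nes array only, from at least 1.35-fold (Fga) to at least 2.30-fold (Apoh, from 4.30 to 9.66 units). The defining liver genes Apoa1, Ahsg and Fgb were not well above background on either array, and Alb, 1 of those 5, was so by 1 of its 2 probes, at 7.21 units (at least 1.72-fold). Of 9 measured genes of pineal gland and pigment epithelium none was 2-fold either way, beside the same shares of all genes. Their median was 0.34, with Pmel at 0.92 ± 0.37 and Tph1 at 0.67 ± 0.41, from only 8.33 and 7.91 units in the control. Of the 9, 3 lay below 0: Rlbp1 (-0.35 ± 0.20), Aanat (-0.30 ± 0.20) and Crx (-0.29 ± 0.21). Of 8 erythroid genes 1 was measured, Hba-a1, at -0.28 ± 0.06.

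**Figure D4:**
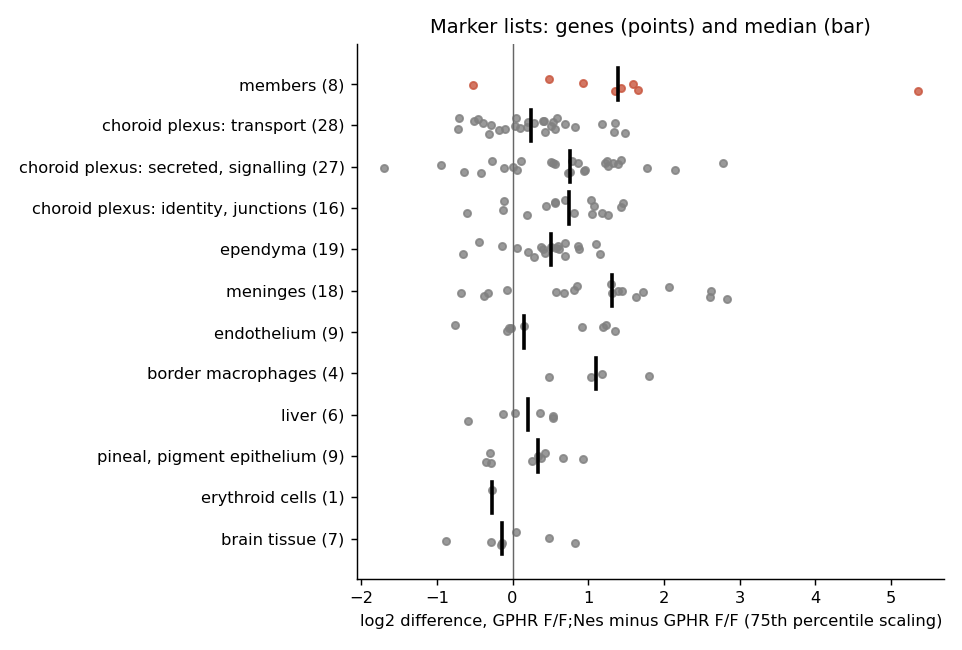
Log2 differences (the Nes array minus the control, scaled to the 75th percentile) of each measured gene (points) and the median (bar) of the members, 3 wider choroid plexus lists and lists of other tissues, with the number of measured genes in parentheses. The lone point at 5.35 is Ttr, and the meninges median (1.31) is close to that of the members (1.40).

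Ttr lay above the other members under each of the 12 alternatives that could measure it. Over them the gap between Ttr and the median of the others was 3.30 to 4.16 log2 units, and Ttr itself was at 3.58 to 5.35. Median centring, no scaling, spike-in scaling and the deposited value table shift each array by a constant. They therefore cannot change the gap of 3.99 and are no check of it. It was also 3.99 with outlier spots kept and without 1 Enpp2 probe, and these are no check of it either. No member spot was flagged as an outlier, and without that probe Enpp2 (1.16) still lay below the median of the others (1.36). Among the other members, Rarres2 ranged from 0.56 to 1.62, Folr1 from 0.40 to 1.43, Otx2 from 0.33 to 1.40 and F5 from 0.17 to 1.66. These 4 were above 0 in every setting that gave them a value, whereas Enpp2 was below 0 in 4 settings and Aqp1 in 1.

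**Figure D5:**
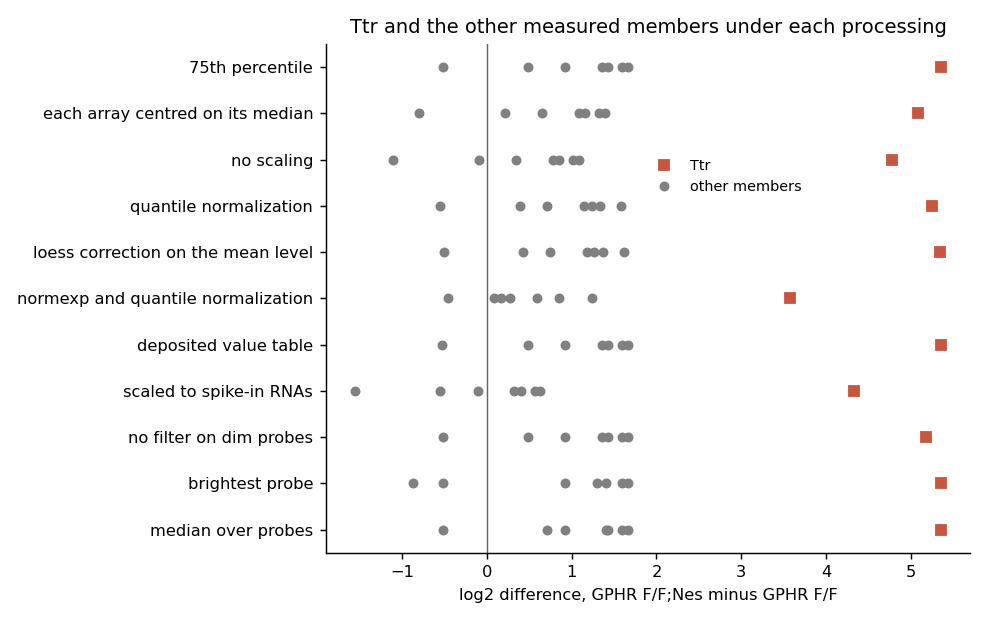
Log2 difference (the Nes array minus the control) of Ttr (red squares) and the 7 other measured members (grey circles) under the main processing, at the top, and 10 of the alternatives. Ttr is to the right of all other members in each row, at 3.58 in the row with normexp and at 4.32 in the row scaled to spike-in RNAs. Median centring, no scaling, the deposited value table and spike-in scaling shift all points of a row alike.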

How the data were processed

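Total brain RNA of 2 samples was labelled with Cy3, per the labels' protocols, and scans were read with Agilent Feature Extraction 11.5.1.1, per the submitters' processing notes. The deposited processed intensity is background-subtracted and detrended, with stand-in values for spots not above background, per the file headers, which also give mm9 as the build and the same scan for both arrays. Deposited flags (other values, 0 or 1) mark spots well above background, saturated or outlying. The deposited value table is on the log2 scale. Its columns matched the log2 processed intensity plus 1 constant per array (-8.01 and -7.43), within 0.001, for 99.9% of probes, with medians of -3.19 (control) and -2.92. They are thus near a 75th percentile scaling and not centred per probe, and the origin of the constants is unknown here.

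Of 62976 spots per array, 59305 were not controls. Outlier spots were left out, repeat spots of a probe averaged as log2 values and then shifted by the 75th percentile of their array. Of 56603 probes, 36717 were measured (67.0% and 69.2% were well above background in the control and GPHR F/F;Nes). A gene's value is the mean over its measured probes, named through RefSeq accessions (GRCm38.p6, names only) or else the array's name. A probe seen on 1 array has a bound, the dim side taken as its own signal or, if higher, the dimmest signal that array had well above background (6.28 units in the control, 5.06 units for GPHR F/F;Nes). Named genes are all members, up to 4 genes per list with the largest differences, defining genes of lists near background, the 5 genes nearest to Ttr and sample checks. Kcne2, Atp1b1, Nnat, Pecam1, Cox8b, Wfikkn2, Tmem72, Aldh1a2, Foxd1, Apoh, Fga, Car12, Slc4a5 and Cldn2 fall outside this rule and were named after their values were seen. The same holds for Cbr2, Siglec1, Egfl7, Esam, Emcn, Ocln, Cldn1, Lmx1b, Tjp1, Otx1, Cldn3, Cdh1 and Epcam. It also holds for Dnah5, Tmem212, Hydin, Rlbp1, Aanat and Crx. Members and lists were chosen with earlier results of these data known, and the brain marker list and the setting without 1 Enpp2 probe after seeing the values. The calculation was tested on simulated arrays. The number of arrays limits the precision. Tools were Python 3.11.15, numpy 2.4.6, pandas 2.3.3, R 4.3.3 and limma 3.58.1 (normexp offset 50, loess span 0.3). Ttr sequences were not used here.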

Additional observations from a re-analysis of the deposited data

How the results depend on the processing

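No paired analysis was possible because each genotype had 1 array, and for the same reason no array could be left out. Ttr lay 3.99 log2 units above the median of the other members, and 3.30 after normexp correction, where that median was 0.28 against 1.36 in the main processing. After scaling to spike-in RNAs the median was 0.33. Of the 5 members at least 2-fold higher, 3 were so without scaling, 3 at a 3-fold threshold, 3 among probes of at least 50 units on both arrays (Ttr, too dim in the control, then had no value), 2 after normexp correction and 1, Ttr, after scaling to spike-in RNAs. The 1901 genes at least 2-fold higher became 4348 at 1.5-fold, 548 at 3-fold, 5514 with no filter on dim probes, 605 from 50 units up, 1077 with arrays centred on their medians, 553 without scaling, 1234 after quantile normalization, 326 after normexp correction and 139 after scaling to spike-in RNAs. Enpp2 was -0.10 without scaling, -0.55 after scaling to spike-in RNAs, -0.08 from 50 units up and -0.87 by its brightest probe, against 0.49 in the main processing. The cause of these shifts was not tested, apart from those that a constant per array or fewer probes bring by construction. Signal near background limits F5, Clic6 and Kl and the control values of Ttr.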
